A study of Mus musculus with 32 samples.

Results

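The comparison described here asks what an agonist of both the GLP-1 receptor (GLP1R) and the glucagon receptor (GCGR) did to gene expression in mouse livers that had grown back after surgery on a standard diet. Its members follow the group labels: 4 livers of the group given agonist and 4 livers of the group without it, 8 of the 32 livers in the series. Members and gene lists were chosen with earlier results of these data known. All 8 came from male C57/BL6 mice on standard diet, sampled 2 weeks after removal of 70% of the liver (partial hepatectomy). The agonist group received 4.4 mg/kg/day every 2 days for 2 weeks before the surgery and again until sampling, while the other group received diet and surgery only. The agonist group's titles say chow where its other labels say standard diet, and this was taken as the same diet. The mice carried no transgene by their labels, and their age was not given in the sources used here. Another 8 livers came from mice on a methionine-choline deficient (MCD) diet before and after the same surgery. Of these, 4 were given agonist for 2 weeks before and after it. They served to ask whether an effect differed between diets, and as a reference for levels. All 32 livers of the series, including those sampled without surgery, entered the main fit. Every group therefore contributed to the spread behind each of its p-values. Each liver was read on one Agilent array.

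Glucagon acts on hepatocytes through GCGR, which raises cyclic AMP and drives glucose production, amino acid breakdown and fatty acid oxidation. GLP1R is best known from the pancreas and brain and is scarce in hepatocytes. Fgf21, a hormone secreted by the liver under fasting and amino acid stress, is a known target of glucagon signalling. The Cyp2b, Cyp2c, Cyp3a and Cyp4a genes encode cytochrome P450 enzymes that oxidise drugs, steroids and fatty acids. Several of them are set at different levels in male and female mice by the pattern of growth hormone release.

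Values are log2 of the background-subtracted signal relative to the 75th percentile of the same array, so 0 is the brightness of that percentile and 1 unit is a doubling. Values of different genes come from different probes and are not comparable as levels. The share of probes well above background ran from 50.6% to 55.4% in agonist livers and from 50.2% to 60.6% in livers without agonist. In total 21691 genes were tested, and the median log2 difference over all of them, agonist minus no agonist, was 0.0020. Albumin, the main hepatocyte product, lay between 9.76 and 10.97 in agonist livers and between 9.62 and 10.33 in livers without agonist, and all 11 tested hepatocyte markers were well above background on all 8 arrays. The 8 arrays shared a slide, with agonist livers in one row and livers without agonist in the other, so group and row cannot be told apart. The arrays of MCD diet after hepatectomy lay on another slide, so in levels compared between diets, diet and slide cannot be told apart. The labels call the samples biological replicates from independent livers.

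A pair of arrays stood apart from the rest: agonist liver 4 and liver 1 without agonist. Across 21349 genes these 2 arrays correlated with each other at 0.977, but with the other 6 arrays only at 0.939 to 0.970, while the other 6 correlated among themselves at 0.972 to 0.988. These are correlations across genes, which are not independent replicates. Both arrays were low for glucose-6-phosphatase (G6pc), with 3.74 in agonist liver 4 and 4.22 in liver 1 without agonist, against 7.49 to 7.89 in the other agonist livers and 7.55 to 7.71 in the other livers without agonist. Both were high for Lcn2, an acute phase protein, with 9.27 and 9.11, and for Trem2, a marker of recruited macrophages, with 3.55 and 3.93. Of 14 macrophage markers 13 were tested and 11 were well above background on all 8 arrays. Macrophage, cholangiocyte and female-biased lists were high and male-biased lists low in the same 2 arrays, as the plot of list scores shows. After centring each gene over the 32 arrays, liver 1 without agonist correlated at 0.064 with the mean of its own group and at 0.25 with the MCD livers without agonist. Agonist liver 4 correlated at 0.12 with its own group and at 0.19 with the MCD livers given agonist. Scd1, the desaturase that is low on MCD diet, was nevertheless at 7.09 in agonist liver 4 and 7.90 in liver 1 without agonist, above the 3.44 to 5.47 of MCD livers with agonist and the 4.49 to 6.08 of MCD livers without it. The main results are therefore given with all 8 arrays and again without these 2.

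The labels of the agonist group carry a doubt of their own. In the processed table that the authors deposited, the columns of the agonist group matched the scanner arrays of MCD diet after hepatectomy, and the reverse, and which of the 2 sources is mislabelled was not settled. Groups follow the scanner arrays here. In these, Scd1 lay between 7.09 and 7.98 in the agonist group, against 4.49 to 6.08 in MCD livers without agonist.

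**Figure D1:**
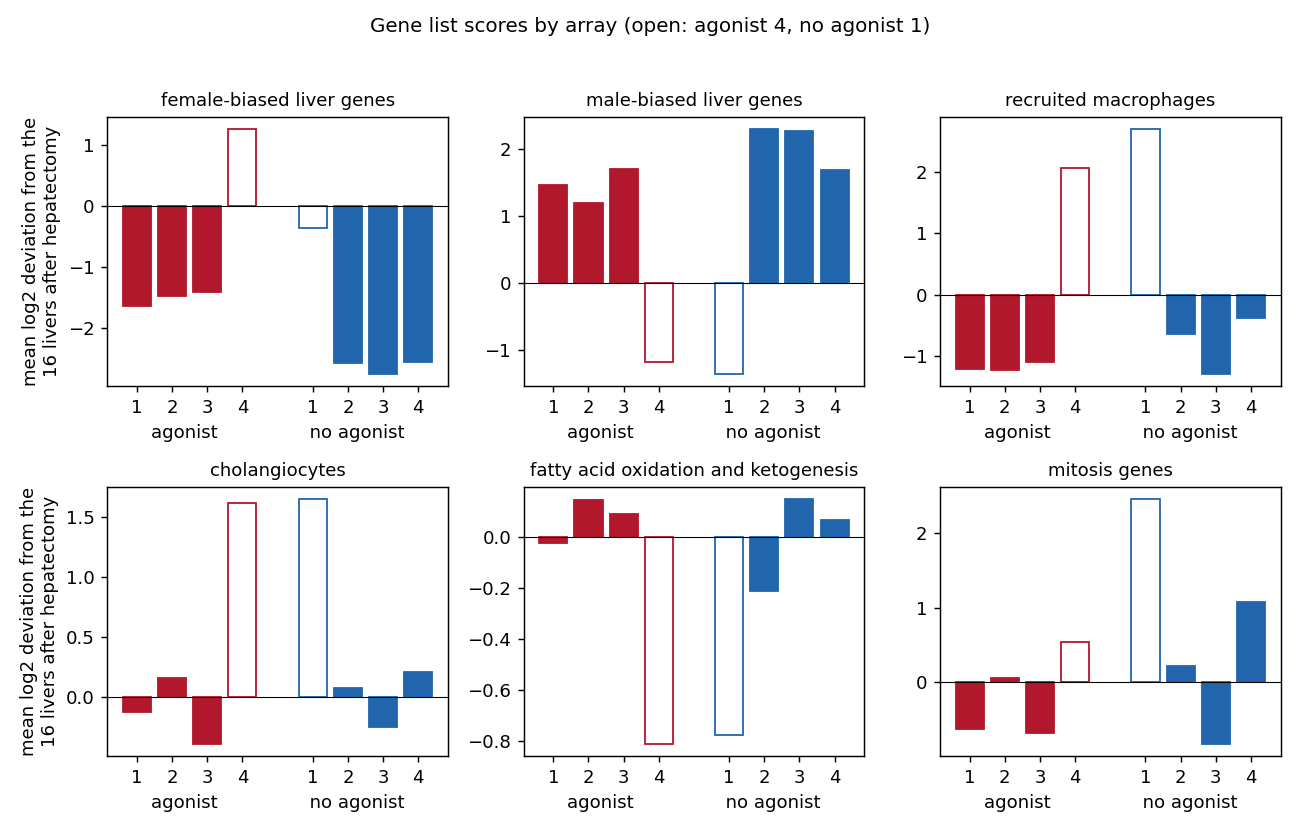
Mean log2 deviation of 6 gene lists in each array, agonist livers left and livers without agonist right, each gene centred on its mean over the 16 livers after hepatectomy; open bars mark agonist liver 4 and liver 1 without agonist. The recruited macrophage score was 2.05 and 2.69 in the open bars and at most -0.39 in the other 6 arrays.

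Among the other 6 arrays, agonist livers 1 and 3 were the closest pair of the 48 same-group pairs in the series. The standard deviation of their log2 difference over 8378 bright genes was 0.28, against 0.33 to 0.88 for the other 47 pairs, and 102 of these genes differed more than 2-fold between them. They were kept as separate livers.

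With agonist, 2 genes rose and 0 fell at an adjusted p under 0.05 (limma, Benjamini-Hochberg), 0.00922% of the 21691 tested. Both were Cyp2b genes: Cyp2b13 and Cyp2b9, female-predominant P450 genes that lie close together on chromosome 7. At an unadjusted p under 0.05, 360 genes were higher (1.66%) and 197 lower (0.908%). The 4 arrays of each group did not overlap for 367 genes that were higher with agonist (1.69%) and for 242 that were lower (1.12%). Without the 2 arrays that stood apart, 2 genes again passed (0.00922%): Cyp2b13 and a non-coding transcript known only by its position. When arrays were instead weighted by how well they fit the groups, 54 genes passed, 31 higher and 23 lower. In the 3 against 3 arrays, 5.92% of genes did not overlap with agonist higher and 6.45% with agonist lower.

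The upstream sequences of the 2 called genes are shown because the genes moved together, beside that of their relative Cyp2b10. Each is the 250 bases before the RefSeq gene start, plus strand of chromosome 7 in build GRCm38.p6, and capitals mark the bases at which Cyp2b13 and Cyp2b9 differ.
Cyp2b13, chr7:26061245-26061494: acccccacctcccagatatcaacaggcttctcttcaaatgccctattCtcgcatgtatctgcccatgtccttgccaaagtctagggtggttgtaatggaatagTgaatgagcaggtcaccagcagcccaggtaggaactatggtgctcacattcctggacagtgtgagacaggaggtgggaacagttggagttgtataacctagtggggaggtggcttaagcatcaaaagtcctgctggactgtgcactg
Cyp2b9, chr7:26173159-26173408: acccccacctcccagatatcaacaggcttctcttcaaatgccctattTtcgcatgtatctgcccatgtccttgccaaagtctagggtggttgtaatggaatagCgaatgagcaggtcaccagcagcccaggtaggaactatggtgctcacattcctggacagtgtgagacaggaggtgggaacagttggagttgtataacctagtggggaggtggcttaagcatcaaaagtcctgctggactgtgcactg
Cyp2b10, chr7:25897408-25897657: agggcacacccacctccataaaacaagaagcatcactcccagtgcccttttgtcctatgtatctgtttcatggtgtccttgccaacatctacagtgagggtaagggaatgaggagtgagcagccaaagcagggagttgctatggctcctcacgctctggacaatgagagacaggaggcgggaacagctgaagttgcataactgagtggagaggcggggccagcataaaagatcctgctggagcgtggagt

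Counted from 1 at the left, with the base of Cyp2b13 first, the differences were C48T and T104C, so 248 of 250 bases were identical. Cyp2b10 matched Cyp2b13 at 187 of 262 aligned positions. The motif TTCNNNGAA, searched on both strands, occurred in none of the 3 sequences and in 7.02% of 32851 promoters of the same length. TGACGTCA, the cyclic AMP response element, also occurred in none of the 3, against 1.55% of all, and TATAAA in none, against 12.4%. No match says only that these letters are not in these windows.

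Cyp2b13 (probe at mm9 chromosome 7, 26880905 to 26880964) read -3.27, -3.31, -3.004 and -3.73 in agonist livers 1 to 4, against -5.70, -6.34, -6.28 and -5.52 in the livers without agonist. The groups did not overlap. The probe was well above background in all 4 agonist livers and in none of the 4 without agonist, so only a bound can be given: at least 2.36-fold higher with agonist (adjusted p = 3.08e-05). This bound sets the agonist mean against, per array, the higher of the probe's own value and the dimmest value among probes well above background. Without the 2 arrays the adjusted p was 0.000189. These p-values use the readings below background as measured: with every reading under its array's dimmest value above background raised to that value, the log2 difference was 1.24 ± 0.28 and the call ended (adjusted p = 0.449). It also ended under a background correction that compresses dim probes (normexp with offset 50), where the measured log2 difference was 0.74.

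Cyp2b9 (mm9 chromosome 7, 26983484 to 26983543) read -1.05, -0.71, -0.86 and -2.08 in agonist livers, against -4.40, -3.73, -4.38 and -5.67 in livers without agonist. Every agonist liver lay above every liver without agonist, and only 2 of the 4 arrays without agonist were well above background for it. The log2 difference was 3.37 ± 0.60 (SE, adjusted p = 0.0495), and without the 2 arrays it was 3.72 ± 0.69 with an adjusted p of 0.0813, which ends the call. Both differences include readings below background. With dim readings raised as above, the log2 difference was 3.16 ± 0.44 (adjusted p = 0.00119). The 60-base probes of Cyp2b13 and Cyp2b9 shared 24 bases at their best ungapped overlap.

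Cyp2b10, the member best known for induction by drugs through the receptor CAR, showed the same separation without passing the test. It read 3.79, 4.14, 3.87 and 4.11 in agonist livers, against 1.73, 1.80, 1.48 and 1.24 in livers without agonist. The log2 difference was 2.42 ± 0.61 (adjusted p = 0.795) and 2.43 ± 0.73 without the 2 arrays. Fitted to the 8 arrays alone, which takes the spread from these livers only, Cyp2b10 passed with an adjusted p of 0.0055. That fit called 0 genes once the 2 arrays were left out. Over the 22 alternatives other than the table as deposited, Cyp2b10 was called in 2. Cyp3a44, a female-predominant steroid hydroxylase, read -2.66, -1.31, -2.24 and -1.43 in agonist livers, against -3.97, -4.94, -4.76 and -3.77 in livers without agonist (log2 difference 2.45 ± 0.64, adjusted p = 0.974, and 2.42 ± 0.76 without the 2 arrays). These groups did not overlap either, but only 2 of the 4 arrays without agonist were well above background for Cyp3a44, and with dim readings raised the log2 difference was 2.18 ± 0.56.

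**Figure D2:**
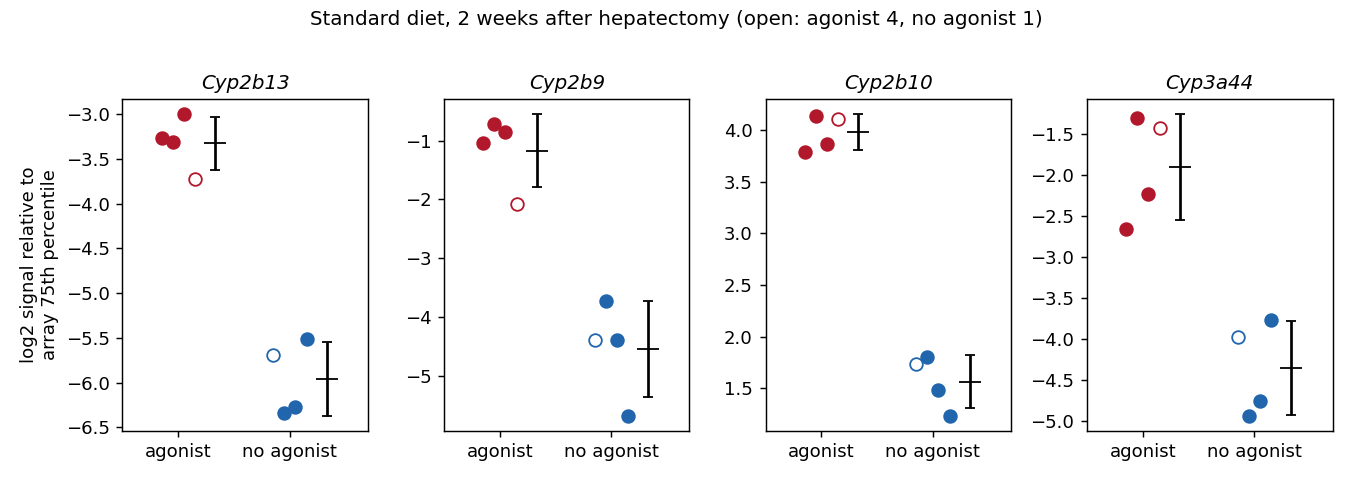
Signal of 4 P450 genes in each liver, in log2 units relative to the 75th percentile of the array, agonist left and no agonist right; open circles mark agonist liver 4 and liver 1 without agonist, and bars give mean ± SD (n = 4). Each gene's agonist livers all lie above its livers without agonist, from -3.73 against -5.52 at the closest for Cyp2b13.

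Among 28 tested xenobiotic P450 genes and their receptors, 2 rose, 0 fell and 26 did not pass, against 0.00922% of all genes called. Their median log2 difference was 0.22, and -0.03 without the 2 arrays. In 4 of the 28 the groups did not overlap with agonist higher (Cyp2b13, Cyp2b9, Cyp2b10 and Cyp3a44), against 1.69% of all genes, and in 1 with agonist lower (Cyp2c55, log2 difference -0.51 ± 0.42), against 1.12%. Of 21 female-biased liver genes 16 were tested, 2 rose and 14 did not pass. The 16 differences were positive, with a median of 0.89 and of 0.90 without the 2 arrays, beside 0.0020 and -0.02 over all genes. Only 9 of the 16 were well above background on all 8 arrays, so these values rest in part on readings near background; with dim readings raised, the median was again 0.89. The groups did not overlap in 4 of the 16, the 3 P450 genes named above other than Cyp2b10 and Cyp39a1, an oxysterol hydroxylase, against the 1.69% of all genes. Without the 2 arrays, 8 of the 16 did not overlap with agonist higher, against 5.92% of all genes, the others being Cyp2a4, Acot3, Slc22a27 and Abcb1a. Cyp39a1 read 3.52, 2.56, 3.52 and 2.97 in agonist livers, against 1.99, 1.07, 2.43 and 1.53 in livers without agonist (log2 difference 1.39 ± 0.32, adjusted p = 0.575).

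Male-biased genes did not pass in any of 25 tested members. Their median was -0.21, and -0.46 without the 2 arrays. With all 8 arrays the groups overlapped in each of the 25, while 1.12% of all genes did not overlap with agonist lower. Without the 2 arrays, 8 of 25 did not overlap with agonist lower, against 6.45% of all genes. Cyp4a12a, a fatty acid hydroxylase typical of male liver, read 4.203, 2.77, 4.19 and 0.78 in agonist livers, against 0.60, 5.98, 6.56 and 5.54 in livers without agonist. Its lowest values were those of agonist liver 4 and of liver 1 without agonist, and the log2 difference was -1.69 ± 0.90 with these 2 arrays and -2.31 ± 0.67 without them (adjusted p = 1.00 and 0.806).

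The difference of the agonist effect between diets was tested for all genes, and 1 passed (0.00461%). It was Cyp2b13, with a measured log2 effect 2.59 ± 0.43 higher on standard diet than on MCD diet (adjusted p = 0.0295). That size rests on the readings below background in livers without agonist: with dim readings raised, the difference between diets was 1.19 and 0 genes passed. The call also ended under normexp, median and quantile scaling, without the filter on dim probes, and with the replicate number as a block, and 0 genes passed in 11 of the 16 fits that left out 1 array. Without the 2 arrays that stood apart, 5 genes passed (0.0231%): Cyp2b13 and the positional transcript, both again below background without agonist, Lrrc75a (2.47 ± 0.45), Car3, a carbonic anhydrase (-2.31 ± 0.42), and Cyp8b1, a hydroxylase of bile acid synthesis (-4.86 ± 0.76). On MCD diet after hepatectomy Cyp2b13 averaged -0.46 ± 0.35 with agonist and -0.50 ± 0.21 without it (SD, n = 4 each). These levels were above all 8 livers on standard diet, whose arrays lay on another slide. For Cyp2b9 the same difference was 2.29 ± 0.85 and did not pass (adjusted p = 0.942).

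The agonist's own receptors did not pass. Gcgr lay between 6.61 and 7.20 in agonist livers and between 6.43 and 7.42 in livers without agonist, with a log2 difference of -0.12 (95% interval -0.62 to 0.37). Glp1r lay between -3.64 and -2.93 in agonist livers and between -3.81 and -2.93 in livers without agonist, and its difference was 0.05 (95% interval -0.93 to 1.03). Of 21 tested glucagon and cAMP response genes none passed, 10 were higher and 11 lower, and the median was -0.03, and 0.03 without the 2 arrays. Pck1, the gatekeeper of gluconeogenesis, differed by 0.19 ± 0.34, the coactivator Ppargc1a by -0.23 ± 0.48 and Igfbp1, a secreted binding protein of insulin-like growth factors, by 0.70 ± 0.42. G6pc differed by -0.09 ± 0.83, and by 0.05 ± 0.68 without the 2 arrays.

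Fgf21 was the exception in size within that list. It read 1.09, 0.01, 1.00 and -3.42 in agonist livers, against -3.80, -3.12, -3.60 and -2.87 in livers without agonist. Agonist livers 1 to 3 lay above every liver without agonist, and agonist liver 4 lay within their range. The log2 difference was 3.02 ± 0.90 (adjusted p = 1.00), and 3.90 ± 0.91 without the 2 arrays (adjusted p = 0.301).

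Among 31 tested genes of the integrated stress response, which couples amino acid shortage to the factor ATF4, none passed and 23 were higher, with a median of 0.21 and of 0.32 without the 2 arrays. Without the 2 arrays the groups did not overlap with agonist higher in 8 of the 31, against 5.92% of all genes. None did so with agonist lower, against 6.45%. With all arrays the groups did not overlap with agonist higher in 1 of the 31, against 1.69% of all genes. It was Vldlr, a lipoprotein receptor, at -1.15, -1.29, -1.25 and -1.41 in agonist livers against -2.33, -2.42, -2.22 and -2.39 in livers without agonist (1.07 ± 0.46, and 1.11 ± 0.54 without the 2 arrays, adjusted p = 1.00 in both). Psat1, an enzyme of serine synthesis, differed by 1.30 ± 0.61 and Ppp1r15a, a phosphatase subunit of the response, by 0.51 ± 0.22. Of 20 tested ER chaperones none passed, the median was -0.36 (-0.30 without the 2 arrays), and 3 did not overlap with agonist lower, against 1.12% of all genes. These were Creld2 (log2 difference -1.496 ± 0.38, and -1.29 ± 0.43 without the 2 arrays), Manf (-0.86 ± 0.32) and Pdia3 (-0.32 ± 0.24), which act in protein folding and ER stress. Of the 20, 15 were lower and 5 higher. Herpud1 was higher by 0.81, at 5.29 to 5.90 in agonist livers against 4.32 to 5.35 in livers without agonist.

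Several genes outside the lists were chosen after their values were seen, for their separation. Rgs16, a regulator of G protein signalling, read 4.31, 3.15, 4.06 and 2.08 in agonist livers, against 0.12, -0.16, -0.42 and -1.75 in livers without agonist (log2 difference 3.95 ± 0.98, and 4.62 ± 1.14 without the 2 arrays, adjusted p = 0.77 and 0.359). Dusp6, a phosphatase that dampens ERK signalling, read 4.35, 4.57, 4.19 and 3.60 in agonist livers, against 2.93, 2.66, 2.92 and 3.04 in livers without agonist (1.29 ± 0.28, and 1.498 ± 0.32 without the 2 arrays, adjusted p = 0.326 and 0.135). Neither gene's groups overlapped. Abcd2, a peroxisomal fatty acid transporter, differed by 1.77 ± 0.40 and the imprinted non-coding gene Meg3 by -1.95 ± 0.48, again without overlap. Without the 2 arrays these differences were 2.16 ± 0.45 and -2.22 ± 0.52.

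**Figure D3:**
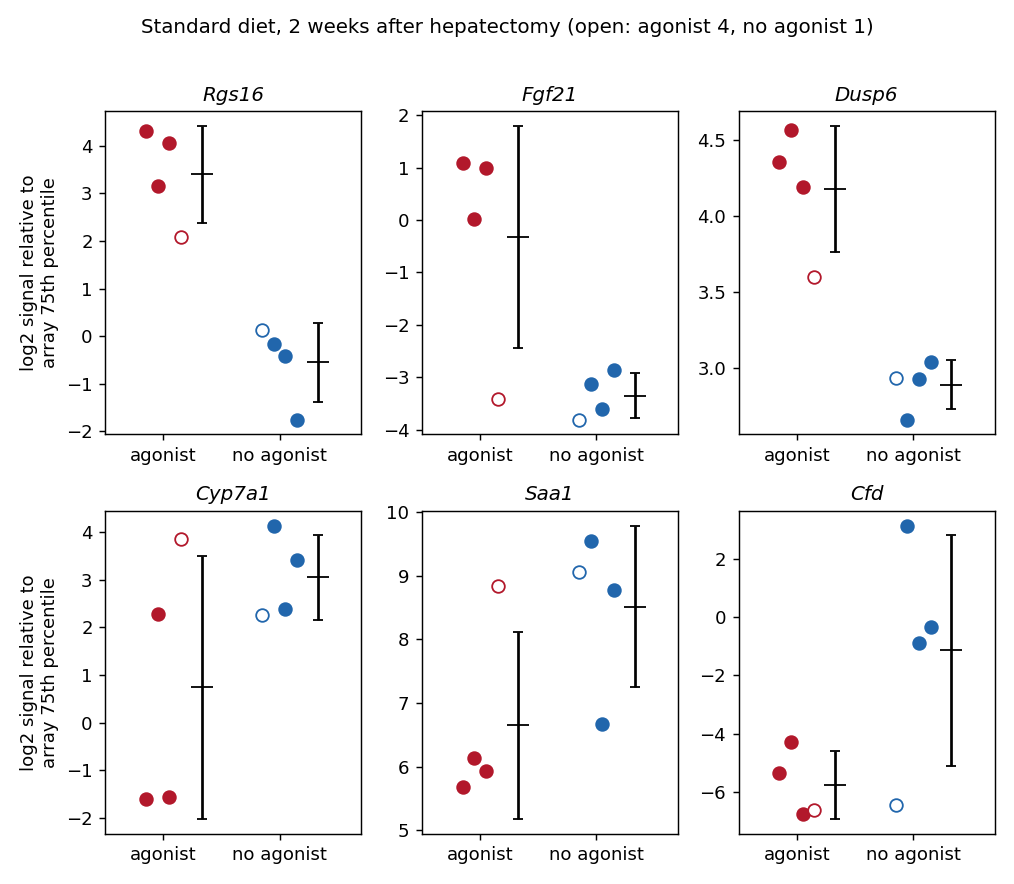
Signal of 6 genes in each liver, in log2 units relative to the 75th percentile of the array, agonist left and no agonist right; open circles mark agonist liver 4 and liver 1 without agonist, and bars give mean ± SD (n = 4). Rgs16 and Dusp6 separate the groups, whereas agonist liver 4 sits with the livers without agonist for Fgf21 (-3.42) and Saa1 (8.84).

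In cholesterol synthesis, a pathway driven by the factor SREBP2, none of 25 tested genes passed, 24 were higher, and the median was 0.28 (0.33 without the 2 arrays). The groups did not overlap with agonist higher in 4 of the 25, against 1.69% of all genes, and in 7 without the 2 arrays, against 5.92%. Among the 4 were Lss, which closes the sterol rings (0.73 ± 0.46), and Sqle, which oxidises squalene (0.57 ± 0.55). Lss read 2.53, 2.82, 2.80 and 2.31 in agonist livers, against 1.88, 1.98, 2.01 and 1.69 in livers without agonist.

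In bile acid synthesis, none of 24 tested genes passed. Cyp7a1, the rate-limiting enzyme, read -1.60, 2.28, -1.57 and 3.85 in agonist livers, against 2.26, 4.13, 2.38 and 3.42 in livers without agonist. It was far below the livers without agonist in agonist livers 1 and 3, the closest pair, and not in agonist liver 4 (log2 difference -2.31 ± 0.89, and -3.61 ± 0.89 without the 2 arrays, adjusted p = 1.00 and 0.359). Abcg5, a subunit of the sterol exporter into bile, read 4.94 to 5.22 in agonist livers and 3.83 to 4.64 in livers without agonist (0.80 ± 0.30). In fatty acid oxidation and ketogenesis none of 30 passed and the median was 0.01: Cpt1a, which admits fatty acids to mitochondria, differed by 0.08 ± 0.22. In lipogenesis none of 24 passed, 15 were higher and 9 lower, and the median was 0.13, and 0.27 without the 2 arrays. With all 8 arrays the groups overlapped in each of the 24. Over all genes, 1.69% did not overlap with agonist higher and 1.12% with agonist lower. Without the 2 arrays, 8 of the 24 did not overlap with agonist higher, against 5.92% of all genes. Another 3 did not overlap with agonist lower, against 6.45%. Pnpla3 differed by 1.34 and was well above background in 3 of the 4 livers of each group. Scd1 differed by -0.47 ± 0.53 and Srebf1, a regulator of the pathway, by -0.61 ± 0.36.

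Of 26 tested acute phase genes none passed and the median was 0.10, although Saa1 and Saa2, the serum amyloid A proteins, differed by -1.87 ± 0.77 and -1.80 ± 0.79. Saa1 read 5.68, 6.14, 5.94 and 8.84 in agonist livers, against 9.06, 9.55, 6.67 and 8.78 in livers without agonist. The groups overlapped through agonist liver 4, which also had the highest macrophage score of its group, and the part of inflammation in this difference was not tested. Mitosis genes were all lower, 21 of 21 with 0 passing, beside 10773 lower of all 21691 genes. Their median was -0.88, and -0.56 without the 2 arrays, and 15 of the 21 were well above background on all 8 arrays. With all arrays the groups overlapped in each of the 21. Without the 2 arrays, 2 of the 21 did not overlap with agonist lower, against 6.45% of all genes. The mitosis score was highest in liver 1 without agonist, at 2.45, where the recruited macrophage score was 2.69, and the part of other cells in it was not tested. Mki67, a marker of dividing cells, differed by -0.46 ± 0.63 and by -0.06 without the 2 arrays, and Ccnd1, a cyclin of cell cycle entry, by 0.27 ± 0.48. In whole liver, fewer cells of a type and less RNA per cell cannot be told apart.

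Among adipocyte markers 7 of 13 were tested, and the defining markers Adipoq, Plin1 and Lep did not pass the filter for detection. Cfd, adipsin, read -5.37, -4.28, -6.76 and -6.63 in agonist livers, against -6.45, 3.14, -0.89 and -0.35 in livers without agonist. It was well above background in none of the agonist livers and in 3 of the 4 without agonist, so the bound was at least 9.98-fold lower with agonist (adjusted p = 1.00, and 0.135 without the 2 arrays). Single arrays set this bound: it was 3.71-fold without liver 2 of the group without agonist and 34.0-fold without its liver 1. Leaving out only liver 1 of the group without agonist, Cfd passed with an adjusted p of 0.0397, as did Cyp8b1 and Slc22a7, an organic anion transporter, both lower with agonist. Slc22a7 read 2.48, 3.66, 2.64 and 2.75 in agonist livers, against 2.02, 5.75, 4.94 and 5.36 in livers without agonist. Pparg, a regulator of fat storage, differed by -0.78 ± 0.22. In antigen presentation, H2-Ab1, a class II molecule, differed by -0.87 ± 0.42, and by -0.36 without the 2 arrays.

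**Figure D4:**
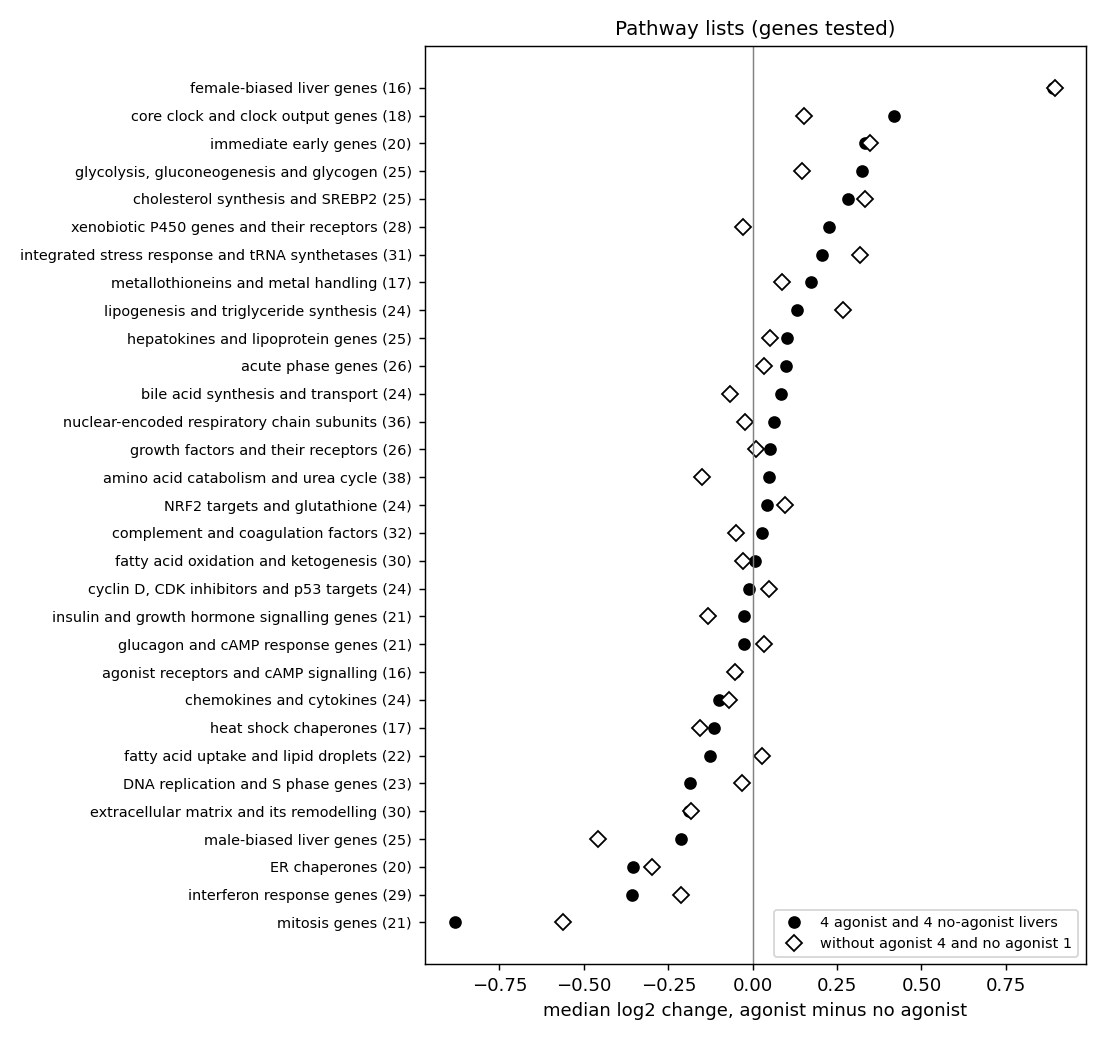
Median log2 difference, agonist minus no agonist, of the 31 pathway lists with the number of genes tested in brackets; filled circles use all 8 livers and open diamonds leave out agonist liver 4 and liver 1 without agonist. Female-biased genes sit at 0.89 and 0.90 under both, whereas mitosis genes sit at -0.88 and -0.56.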

How the data were processed

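Per the labels' protocols, total RNA was Cy3-labelled and hybridised to one-colour arrays. Per the file headers, the deposited spot values are linear intensity from Feature Extraction 10.7.3.1, background-subtracted in the processed signal. Values tested were log2 of that deposited intensity minus each array's 75th percentile. Outlier-marked spots were left out, repeated spots averaged, and a probe entered when every array of 1 or more groups had it well above background (30118 probes). A gene is its brightest such probe; 10 values were missing over the 8 arrays. Names were updated through RefSeq tables of GRCm38.p6, and probe positions are mm9 as deposited.

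Contrasts came from one limma fit over 8 groups (R 4.3.3, limma 3.58.1), with Benjamini-Hochberg adjustment over all 21691 genes at 0.05; the fit was tested on simulated data. The deposited processed table holds log2 values by their range; the submitters' processing notes name limma. Its columns for standard diet with agonist after hepatectomy matched the arrays of MCD diet after hepatectomy (r 0.993 to 0.995 against mean signal, and 0.869 to 0.938 against their own arrays), and likewise in reverse. Which source is mislabelled was not settled, and the table served only as an alternative. The number of arrays limits the precision.

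Members and gene lists were chosen with earlier results of these data known. Named genes are called genes without overlap between groups, in each list described the members of smallest p, 4 at most, plus those needed to name a count, a fixed set including Fgf21, Gcgr and Cyp7a1, and called interactions; others are said to be chosen after their values were seen. A few genes of this rule are not reported here. Alternatives were normexp with offset 50, median and quantile scaling, only the compared groups, dim probes or outlier spots included, averaging a gene's probes, a replicate block, array weights, and arrays left out. Averaging agonist livers 1 and 3, leaving out both distant arrays in the fit of the compared groups, and raising each reading under its array's dimmest value well above background to that value were added after seeing the data.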

Additional observations from a re-analysis of the deposited data

Results flagged for a closer look

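In 93 genes and 2 groups, 186 sets of 4 arrays, 21 had a single array whose gap to the next, divided by the group's range, passed Dixon's 95% critical value; chance flags about 1 in 20 such sets. Of these, 12 were agonist liver 4 and 6 were liver 1 without agonist. In agonist liver 4 the gap ratio was 0.959 for Trem2, 0.926 for Lcn2, 0.916 for Spink1, 0.895 for Pparg, 0.856 for Saa1, 0.844 for Cd36 and 0.844 for Abcb1a, all with the array high. With the same array low it was 0.905 for G6pc, 0.893 for Pdia3, 0.876 for Pnpla3, 0.875 for Cpt1a and 0.838 for Car3. In liver 1 without agonist, which was low each time, it was 0.969 for Hsp90aa1, 0.953 for G6pc, 0.943 for Slc37a4, 0.925 for Car3, 0.885 for Cyp8b1 and 0.865 for C9. Elsewhere Tyms was high in agonist liver 1 (0.96), where it read 3.52 against -2.56, -2.33 and -2.57 in agonist livers 2 to 4. Saa2 was low in liver 3 without agonist (0.855) and Srebf1 high in liver 2 without agonist (0.875).

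Cyp2b13 was also picked out because its agonist effect differed between diets in the test of the difference itself, by 2.59 on the log2 scale as measured. Its probe was below background in the 4 livers on standard diet without agonist, and with dim readings raised to the dimmest value above background the difference was 1.19 and did not pass.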

How the results depend on the processing

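The count of genes called for the agonist was 2 (2 higher, 0 lower). It was 2 with median scaling and without both distant arrays, 1 with quantile scaling, dim probes included, averaged probes or outlier spots included, 3 with only the compared groups, and 54 with array weights (31 higher, 23 lower). It was 0 with normexp and with the value table at matching arrays, where Cyp2b13 differed by 0.74 and 0.75. As deposited, the table, whose agonist columns match MCD arrays, gave 2552 and turned Pdk4 to 1.46, Inhbe to 1.64, Spink1 to 3.43 and Cd36 to 2.22. Leaving out 1 array gave 1 to 7 calls, the 7 without liver 1 of the group without agonist. The alternatives added after seeing the data gave 1 (agonist livers 1 and 3 averaged), 0 (compared groups without both arrays) and 1 (dim readings raised, which kept Cyp2b9). Over 22 alternatives other than the table as deposited, Cyp2b13 was called in 17 and Cyp2b9 in 5, each higher with agonist in all 22.

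The count for the difference between diets was 1. It was 0 with normexp, median and quantile scaling, no dim filter, dim readings raised and both forms of the value table, 5 without both arrays, 176 with array weights, and 0 to 4 with 1 array left out (0 in 11 of 16).

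With the replicate number as a block the counts were 0 and 0. Same-numbered livers deviated together at -0.20, 0.14, 0.44 and -0.18, so the numbers were not taken to pair them, whereas agonist liver 4 and liver 1 without agonist reached 0.65. A slide block could not be fitted. Of 93 gene values, 4 changed sign without both arrays, as did 12 of 49 list medians.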
